A study of Mus musculus with 36 samples.

Results

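Grik1, Grik2, Grik3, Grik4 and Grik5 encode the subunits of kainate receptors, and Grid1 encodes a subunit of the delta receptors, a neighbouring branch of the ionotropic glutamate receptor family. All probe sets annotated to 1 of these symbols were taken, which gave 10 probe sets of the 45101 on the array and 6 genes of the 18194 with a symbol. Kainate receptors are glutamate-gated cation channels that act on both sides of the synapse. The subunits encoded by Grik1, Grik2 and Grik3 can form channels by themselves, whereas those encoded by Grik4 and Grik5 bind kainate with high affinity and need a subunit of the first kind. In the rat, in situ hybridisation places Grik2 and Grik5 transcripts in cerebellar granule cells and Grik1 and Grik4 transcripts in Purkinje cells. Delta receptors bind cerebellins, secreted proteins that also hold presynaptic neurexins and so bridge the synapse.

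Total RNA from the forebrain or cerebellum of mice was hybridised to 36 Affymetrix 1-colour arrays. The groups were stg-/-, tg-/-, lh-/-, stg+/+, tg+/+ and lh+/+, with 3 arrays of each group in each tissue, and the 3 line names are stg, tg and lh. The symbols are those of the mouse mutants stargazer, tottering and lethargic, which carry mutations of Cacng2 (an AMPA receptor auxiliary subunit), Cacna1a (the pore of P/Q-type calcium channels) and Cacnb4 (a calcium channel beta subunit), although full names are absent from the labels. Mutants of these names are spontaneous and lack or alter the protein throughout the body. Age and strain background are not stated, nor is whether any 2 arrays share a mouse, so the p-values measure the spread between arrays, which may be partly technical.

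The labels were checked on the mutated genes and on tissue markers. In cerebellum, Cacng2 signal was 2.43 to 4.72 in stg-/- and 473 to 841 in stg+/+, and Cacnb4 averaged 1375 ± 116 in lh-/- and 2121 ± 417 in lh+/+ (SD, n = 3 each), whereas Cacna1a ranges overlapped between tg-/- and tg+/+. All 6 measured cerebellum identity markers were higher in +/+ cerebellum than in +/+ forebrain, and all 10 measured forebrain neuron markers were lower. High signals of the pituitary hormones Gh and Prl marked 3 forebrain arrays (stg+/+ replicates 1 and 2, lh+/+ replicate 3). No member lies on the chromosome of a mutated gene, which are 15 for Cacng2, 8 for Cacna1a and 2 for Cacnb4.

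The probe set with the highest mean signal of a gene was read first and is called its main probe set. A signal is a linear intensity in array units, and levels of different probe sets were not compared. Changes are differences of log2(signal + 2.98). A probe set was called where the limma adjusted p was under 0.05 over all 27022 probe sets kept by a filter on low signal. The filter kept 9 of the 10 member probe sets in the forebrain and in the 36-array fit, and 7 in cerebellum. The second Grik3 probe set (1427709_at) stayed near the floor, at 1.40 to 4.80 in +/+ cerebellum and 1.86 to 14.3 in +/+ forebrain, and was never tested. The second probe sets of Grik1 (1439987_at) and Grid1 (1421569_at) were below the filter in cerebellum.

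Promoter sequences were found in RefSeq (GRCm38.p6) for 4 of the 6 genes, Grik2, Grik3, Grik4 and Grik5. Grik2, Grik3 and Grik5 are shown because these carry the clearest tissue and mutation results below. Each window has 250 bases before and 50 after the start of its promoter entry, on the coding strand. All these windows lie inside the gene positions given below, so their bases are not upstream of the outermost start of the gene. Capitals mark GGGCGG or its reverse complement CCGCCC, the core of GC boxes, with overlapping matches counted.
Grik3 (chr4:125490446-125490745, + strand): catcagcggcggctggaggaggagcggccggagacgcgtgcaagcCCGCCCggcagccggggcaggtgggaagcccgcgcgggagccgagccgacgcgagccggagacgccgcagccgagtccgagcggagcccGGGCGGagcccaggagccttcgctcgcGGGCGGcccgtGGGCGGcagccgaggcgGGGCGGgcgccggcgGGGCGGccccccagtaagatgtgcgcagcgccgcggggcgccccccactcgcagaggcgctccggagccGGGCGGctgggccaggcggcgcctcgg
Grik2 (chr10:49788705-49789004, - strand): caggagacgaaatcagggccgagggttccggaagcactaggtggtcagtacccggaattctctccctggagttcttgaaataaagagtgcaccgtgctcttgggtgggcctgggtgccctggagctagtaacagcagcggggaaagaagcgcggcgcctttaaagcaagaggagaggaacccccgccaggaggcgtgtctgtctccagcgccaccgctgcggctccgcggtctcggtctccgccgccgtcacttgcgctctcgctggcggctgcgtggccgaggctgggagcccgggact
Grik5 (chr7:25072320-25072619, - strand): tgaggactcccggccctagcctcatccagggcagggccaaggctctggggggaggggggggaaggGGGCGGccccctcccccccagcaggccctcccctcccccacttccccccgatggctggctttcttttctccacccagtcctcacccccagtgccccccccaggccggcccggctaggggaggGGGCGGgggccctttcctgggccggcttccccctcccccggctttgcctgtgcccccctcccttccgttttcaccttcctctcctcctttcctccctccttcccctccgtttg
The Grik3 window held 7 matches and 50 CG dinucleotides, more CG than 99.1% of the 32851 promoters in the table. The Grik5 window held 2 matches and 10 CG dinucleotides. The Grik2 window held no match and 26 CG dinucleotides, and the Grik4 window, which is not shown, 2 matches and 42 CG dinucleotides. Of all promoters, 35.7% held GGGCGG on either strand, 13.6% TATAAA and 1.79% TGACGTCA, and neither of the last 2 motifs was in any of these 4 windows.

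The difference between tissues was read in the 9 +/+ arrays of each. Grid1 and Grik5 were lower in cerebellum than in forebrain, Grik4 was lower by less, and both probe sets of Grik2 were higher. The main probe sets of Grik1 and Grik3 were not called. Of the 7 member probe sets above the filter in both tissues, 5 were called, 2 higher and 3 lower, beside 57.1% of all probe sets above it in both. Their median difference was -0.10, against 0.06 over all these probe sets. The second probe sets of Grik1 and Grid1 passed the filter of the 36-array fit only through forebrain, where they are brighter, so their lower values in cerebellum are given as a description. With them the fit called 7 of 9, beside 58.2% of all probe sets in it. In these bulk tissues, fewer cells of a type and less RNA per cell cannot be told apart.

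Grik2 lies on chromosome 10 from 49093680 to 49790161 (GRCm38.p6, as for all positions below) and encodes a pore-forming subunit found in many kainate receptors of the brain. Its main probe set (1457683_at) ranged from 140 to 252 in +/+ cerebellum with a median of 183, and from 71.4 to 142 in +/+ forebrain with a median of 133. The difference was 0.56 (SE 0.12, limma adjusted p = 0.000173), and the ranges overlapped by the lowest cerebellar array, of lh+/+. The second probe set (1425790_a_at) ranged from 93.5 to 158 in +/+ cerebellum, with a median of 120, and from 46.9 to 88.7 in +/+ forebrain, with a median of 74.5. Its ranges did not overlap, and its difference was 0.76 (SE 0.11, limma adjusted p = 1.09e-06).

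Grik1 lies on chromosome 16 from 87895901 to 88290863. Its main probe set (1427676_a_at) averaged 76.4 ± 27.6 in +/+ cerebellum and 76.4 ± 12.5 in +/+ forebrain (SD, n = 9 each), a difference of -0.08 (SE 0.12, limma adjusted p = 0.585). That mean joined lines whose values had opposite signs. In the +/+ arrays the difference was 0.35 in stg, 0.31 in tg and -0.90 in lh. Only the last was called (limma adjusted p = 0.000968), while stg and tg were not (limma adjusted p = 0.200 and 0.266). The test of whether the tissue difference varies among +/+ lines, added after the data were seen, did not pass (limma adjusted p = 0.292), beside 0.0148% of probe sets called. The dimmer second probe set averaged 22.1 ± 9.59 in +/+ cerebellum, below the filter there, and 38.2 ± 9.98 in +/+ forebrain (SD, n = 9 each).

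Grik3 lies on chromosome 4 from 125490259 to 125714173. Its main probe set (1440177_at) ranged from 151 to 242 in +/+ cerebellum, with a median of 201, and from 56.7 to 299 in +/+ forebrain, with a median of 249. The lowest forebrain value was that of tg+/+ replicate 2, and the next lowest was 184. The difference was -0.10 (SE 0.18, limma adjusted p = 0.652). Without that array it was -0.36 and passed the test (limma adjusted p = 0.00138), so a single library decided this call.

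Among the high-affinity subunits, Grik5, on chromosome 7 from 25009849 to 25075694, averaged 126 ± 25.0 in +/+ cerebellum and 309 ± 52.9 in +/+ forebrain (SD, n = 9 each). Every cerebellar array (96.6 to 172) was below every forebrain array (187 to 363), and the difference was -1.27 (SE 0.10, limma adjusted p = 4.79e-13). Grik4, on chromosome 9 from 42518182 to 42945000, ranged from 18.2 to 78.5 in +/+ cerebellum and from 45.3 to 83.0 in +/+ forebrain. These ranges overlapped, and the difference was -0.52 (SE 0.17, limma adjusted p = 0.0101).

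Grid1 lies on chromosome 14 from 34820003 to 35583387. Its main probe set (1441499_at) ranged from 52.7 to 120 in +/+ cerebellum, with a median of 80.0, and from 209 to 280 in +/+ forebrain, with a median of 234. No arrays overlapped, and the difference was -1.54 (SE 0.09, limma adjusted p = 8.42e-16), the largest among the main probe sets of the 6 genes. The dimmer second probe set ranged from 3.15 to 33.9 in +/+ cerebellum, below the filter there, and from 22.3 to 78.2 in +/+ forebrain. Non-overlap of all arrays was thus seen in 3 of the 9 probe sets (Grid1 main, Grik5 and the second of Grik2), beside 22% of all probe sets. The tissue difference had the same sign among the first 20 records of the series and among the other 16 for the 5 called probe sets above the filter in both tissues, with -1.46 and -1.59 in the main probe set of Grid1 and -0.29 and -0.57 in Grik4.

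**Figure D1:**
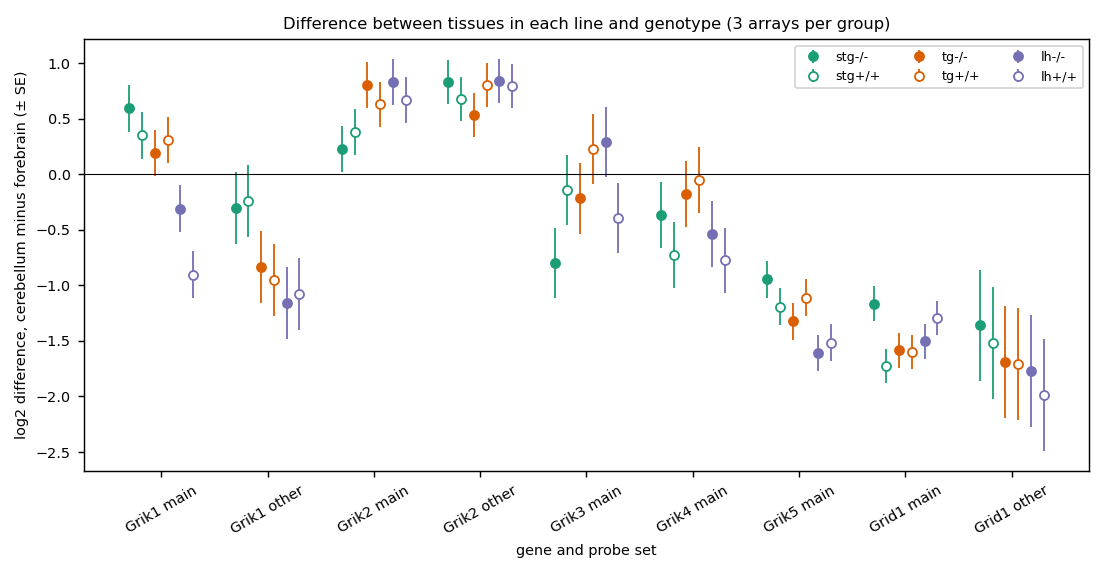
Log2 difference between cerebellum and forebrain (vertical axis) for the 9 tested probe sets in each line, with filled points for -/- and open points for +/+, bars for SE and 3 arrays per group. The Grid1 and Grik5 points lie below 0 and the Grik2 points above 0 in all 6 combinations, whereas main Grik1 is 0.59 in stg-/-, 0.35 in stg+/+ and 0.31 in tg+/+ but -0.31 in lh-/- and -0.90 in lh+/+.

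The tissue differences were of the same direction in the -/- arrays for these 5 probe sets. In a comparison added after the data were seen, Grid1 main differed by -1.42, Grik5 by -1.29 and the Grik2 probe sets by 0.62 and 0.73, and all these were called, beside 56.6% of all probe sets. Grik4, at -0.36, was not (limma adjusted p = 0.0722). The main probe sets of Grik1 (0.16, limma adjusted p = 0.279) and Grik3 (-0.24, limma adjusted p = 0.264) were again not called.

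The comparison of each -/- group with the +/+ group of its line asked which transcripts differ with each mutation. In cerebellum, Grik3 fell in stg-/-. It was the 1 member called of 7 tested there, beside 1.3% of all probe sets called and 0.777% called lower. The signals were 148, 138 and 117 in stg-/- cerebella, against 219, 183 and 242 in stg+/+ cerebella. All 3 stg-/- arrays lay below all 3 stg+/+ arrays, which was true in the lower direction of 7.48% of all probe sets. Means were 134 ± 15.5 in stg-/- and 214 ± 29.4 in stg+/+ (SD, n = 3 each), a change of -0.66 (SE 0.16, limma adjusted p = 0.0437).

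This Grik3 call was close to the threshold. It was lost when any of 5 of the 6 arrays was left out, with limma adjusted p from 0.0603 without stg-/- replicate 1 to 0.200 without stg-/- replicate 3 or stg+/+ replicate 3, and stayed only without stg+/+ replicate 2 (limma adjusted p = 0.0375). The change was negative each time, from -0.77 to -0.57. It rests on a single probe set, since the other was at the floor. Within the first 20 records the change was -0.48 (2 arrays against 2) and within the other 16 it was -1.03 (1 against 1).

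Some cell type markers differed beside it. Of 9 measured granule cell markers 3 fell in stg-/- cerebellum, Grm4 by 0.66, Gabra6 by 0.41 and Tiam1 by 0.42 on the log2 scale, and their summed signal was 25538 to 27345 in stg-/- and 28934 to 32598 in stg+/+. Of the 8 astrocyte markers Gfap alone passed, higher by 0.93. The summed astrocyte and Bergmann glia signal was 15674 to 17366 in stg-/- and 14520 to 15629 in stg+/+, with no overlap. None of the 9 Purkinje cell markers passed, but their summed signal, 41363 to 46283 in stg-/- and 32449 to 40654 in stg+/+, did not overlap either. None of the 7 molecular layer interneuron markers passed, and the summed interneuron signal was 15495 to 16014 in stg-/- against 14489 to 16107 in stg+/+. In lh cerebellum, where Grik3 was not called, the granule cell sum was 27031 to 27907 in lh-/- and 31850 to 34198 in lh+/+. The astrocyte and Bergmann glia sum there was 15309.6 to 15846.5 in lh-/- and 13078.8 to 14346.5 in lh+/+, so neither overlapped. The Purkinje cell sum overlapped in lh, as did the granule cell, astrocyte and Purkinje cell sums in tg. Other sums did not overlap in tg and lh cerebellum. The Golgi and unipolar brush cell sum was 2657 to 2980 in tg-/- and 3155 to 3702 in tg+/+. In lh it was 2620 to 2983 in lh-/- and 3558 to 4435 in lh+/+. The microglia sum was 1151 to 1415 in tg-/- and 893 to 1087 in tg+/+. In lh it was 1099 to 1130 in lh-/- and 845 to 900 in lh+/+. Both of these sums overlapped in stg. The part of these marker shifts in the Grik3 value was not tested. For such sums the share without overlap was not counted. Among all single probe sets it was 7.48% in the lower direction in stg cerebellum and 7.21% in the higher direction in lh cerebellum.

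In the other lines Grik3 was not called in cerebellum. In lh it was 226, 269 and 252 in lh-/- and 151, 211 and 213 in lh+/+, so every lh-/- array was above every lh+/+ array, as in 7.21% of all probe sets, by 0.39 on average (SE 0.16, limma adjusted p = 0.554). In tg it was 143, 209 and 169 in tg-/- and 201, 194 and 201 in tg+/+, and the ranges overlapped (-0.21, SE 0.16, limma adjusted p = 0.921). The test that the effect differs among the 3 lines did not pass (limma adjusted p = 0.118), beside 0.315% of probe sets called. In forebrain the Grik3 changes were -0.01 in stg, 0.24 in tg and -0.29 in lh, each with an SE of 0.38, and none was called. That SE is pooled over all forebrain groups. The log2 SD was 1.33 in tg+/+ and 0.316 or less in the others, so the stg and lh tests also carry the spread of tg+/+. In lh forebrain all lh-/- arrays (189 to 215) lay below all lh+/+ arrays (221 to 292), as in 4.5% of all probe sets. The tg value was -0.53 without tg+/+ replicate 2, the array with 56.7. The stg change in cerebellum minus that in forebrain was -0.66 (SE 0.45), which did not pass (limma adjusted p = 0.934). Over the alternatives and left-out arrays its lowest limma adjusted p was 0.312.

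**Figure D2:**
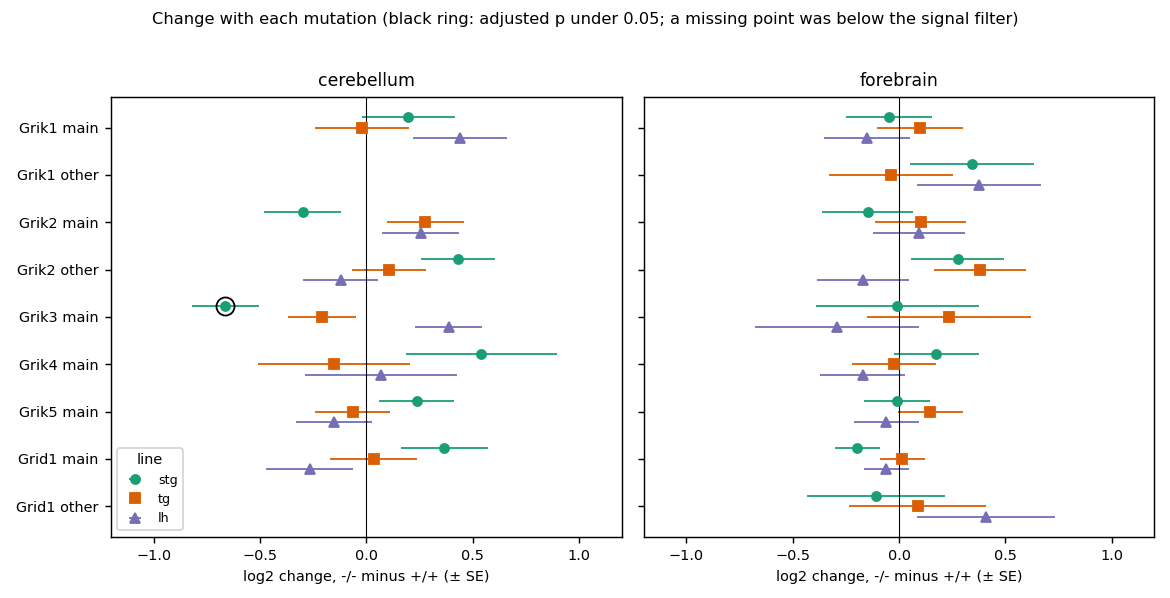
Log2 change of -/- over +/+ (horizontal axis, bars for SE) for the tested probe sets in cerebellum (left) and forebrain (right), with circles for stg, squares for tg and triangles for lh. The ringed point, Grik3 in stg cerebellum at -0.66, is the only call, and Grik3 in lh cerebellum lies at 0.39.

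No other member was called with any mutation. In stg cerebellum the remaining 6 probe sets had limma adjusted p of 0.347 or more. Grik2 gave opposite signs, -0.30 (SE 0.18) at its main probe set and 0.43 (SE 0.17) at the second, and across the 36 arrays after removal of tissue means the 2 probe sets had r = -0.17, a description with shared arrays. Grik4 was 0.54 (SE 0.36), with 35.0, 90.0 and 61.5 in stg-/- and 50.6, 18.2 and 62.5 in stg+/+, so its arrays varied more within a group than between the groups. Grid1 was 0.37 (SE 0.20), Grik5 0.24 (SE 0.18) and Grik1 0.20 (SE 0.22).

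In tg cerebellum none of 7 was called, beside 0.574% of all probe sets, and changes ran from -0.21 in Grik3 to 0.28 in main Grik2. The tg-/- values of main Grik2 were 213, 209 and 203, all above the tg+/+ values of 184, 184 and 148, as in 7.23% of all probe sets. In lh cerebellum none of 7 was called, beside 0.155%, and changes ran from -0.27 in Grid1 to 0.44 in Grik1. Grid1 was 75.7 to 84.1 in lh-/- and 84.2 to 120 in lh+/+, with no overlap, as in 5.47% of all probe sets. At an unadjusted p under 0.05 limma counted 2 members in stg, 0 in tg and 1 in lh cerebellum, beside 10.7%, 7.28% and 7.62% of all probe sets. Over the 3 lines together none of 7 was called, beside 1.97%, with changes from -0.16 in Grik3 to 0.21 in Grik1.

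In forebrain none of 9 probe sets was called in stg, tg or lh by limma, beside 0.0111%, 0.189% and 0.0148% of all probe sets, and none had an unadjusted p under 0.05, beside 2.55%, 5.68% and 3.87%. The mean over the 3 lines and the test among lines also called none, beside 0.0148% and 0.0259%. Changes ran from -0.20 (Grid1 main) to 0.34 (second Grik1) in stg, from -0.04 (second Grik1) to 0.38 (second Grik2) in tg, and from -0.29 (Grik3) to 0.41 (second Grid1) in lh. The main probe set of Grid1 was at 210 to 231 in stg-/-, 210 to 232 in tg-/- and 227 to 250 in lh-/-, against 234 to 280 in stg+/+, 209 to 230 in tg+/+ and 233 to 255 in lh+/+. The 3 stg-/- arrays lay below the 3 stg+/+ arrays there (-0.20, SE 0.11, not called), as was true of 3.87% of all probe sets, and 2 of the stg+/+ arrays were those high for Gh and Prl. The part of that signal was not tested. Without the 3 arrays of high pituitary hormone signal, still 0 members were called in stg and in lh forebrain.

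The change with mutation was not called different between tissues for any member, beside 0.248% of probe sets in stg, 0.0259% in tg and 0.0111% in lh. The smallest value was that of main Grid1 in stg, where the change was 0.37 in cerebellum and -0.20 in forebrain. That difference was 0.56 (SE 0.22), which did not pass (limma adjusted p = 0.599).

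**Figure D3:**
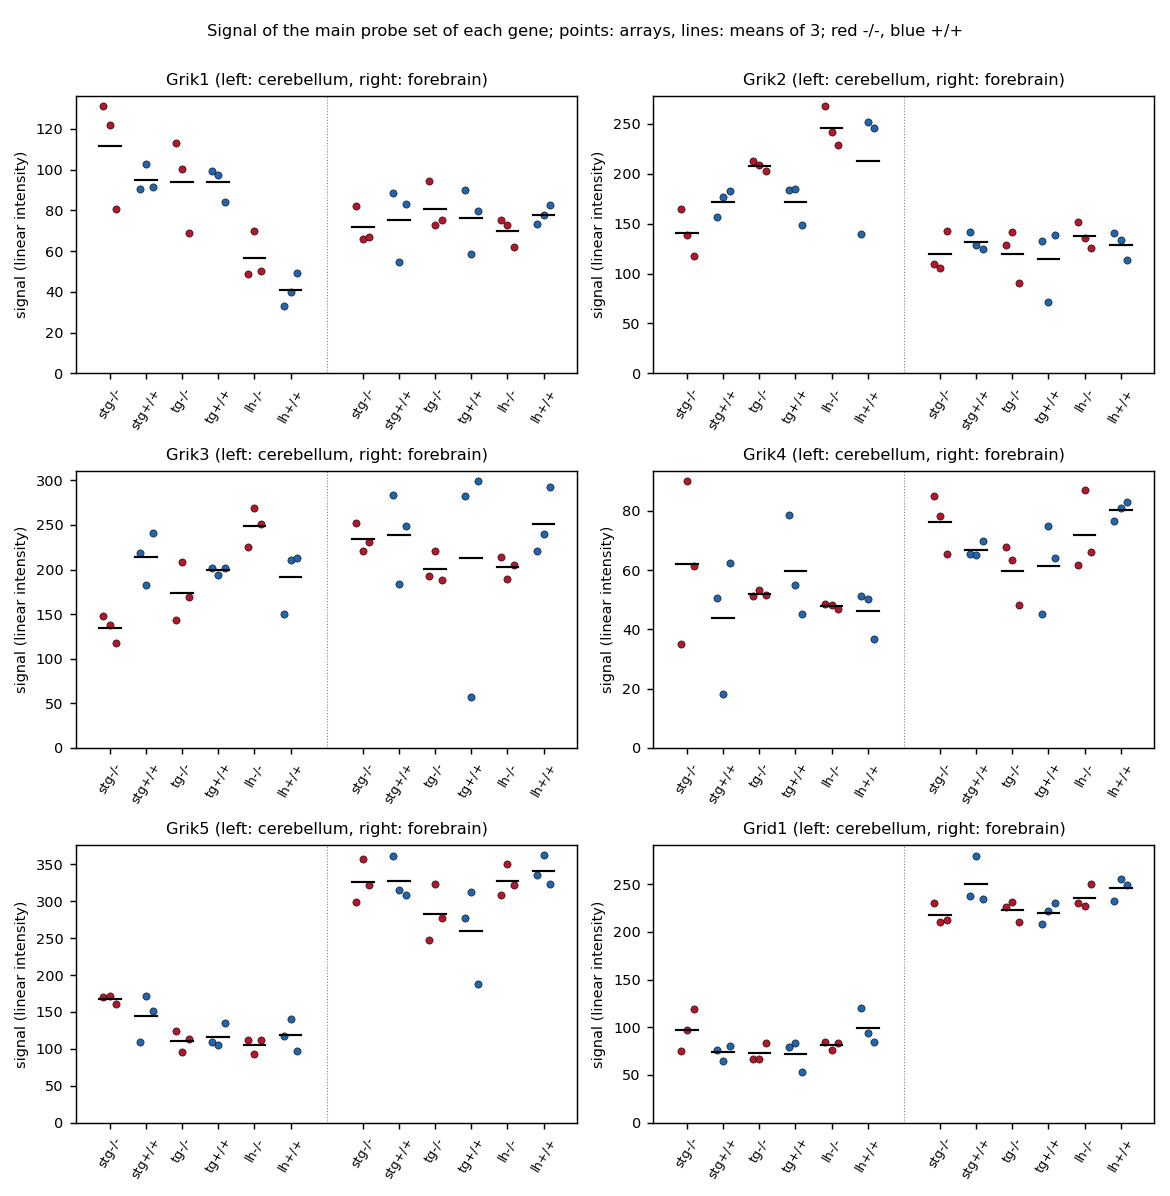
Signal of the main probe set of each gene (vertical axes, linear intensity from 0) on every array, with cerebellum left and forebrain right of the dotted line, -/- in red, +/+ in blue and lines at the means of 3. Grik1 is lowest in the lh groups of cerebellum (33.1 to 69.9), Grik3 has a single forebrain array at 56.7 in tg+/+, and Grik5 and Grid1 separate by tissue.

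Among the +/+ groups the lines differed for 1 member, Grik1, in cerebellum. Its main probe set read 33.1, 39.8 and 49.2 in lh+/+, against 90.3, 103 and 91.7 in stg+/+ and 99.5, 97.3 and 84.3 in tg+/+. All lh+/+ arrays lay below all others of +/+ cerebellum, but the share of all probe sets for which this holds was not counted. The limma F test among the 3 +/+ groups gave an adjusted p of 0.0102, and Grik1 was the 1 member called of 7, beside 0.881% of all probe sets. The call was lost without lh+/+ replicate 1 (adjusted p = 0.0733) or replicate 2 (adjusted p = 0.0530). In comparisons added after the data were seen, lh+/+ minus stg+/+ was -1.18 (limma adjusted p = 0.0161, beside 0.496% called) and lh+/+ minus tg+/+ was -1.16 (limma adjusted p = 0.0153, beside 0.618% called). Purkinje cell markers, summed, were 37157 to 41352 in lh+/+, 32449 to 40654 in stg+/+ and 40409 to 41846 in tg+/+, so lh+/+ was not apart. In forebrain the 3 +/+ groups overlapped for Grik1 (73.4 to 82.6 in lh+/+, 54.4 to 88.6 in stg+/+ and 58.4 to 90.0 in tg+/+), and 0 of 9 members were called there, beside 0.414%.

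The -/- cerebella repeated the low Grik1 of the lh line. Signals were 48.9, 69.9 and 50.4 in lh-/-, 131, 122 and 80.8 in stg-/- and 113, 100 and 68.9 in tg-/-, with only the tg-/- minimum inside the lh-/- range. In the order of the 6 cerebellar group means, the step between tg+/+ (93.7 ± 8.22) and lh-/- (56.4 ± 11.7) was the only one between neighbours whose arrays did not overlap (SD, n = 3 each). The share of all probe sets with such a step was not counted. The F test among -/- groups, also added after the data were seen, called main Grik1 (limma adjusted p = 0.0339), main Grik2 (limma adjusted p = 0.0270) and Grik3 (limma adjusted p = 0.00678), 3 of 7 beside 5.15% of all probe sets. Grik5 stood just outside (limma adjusted p = 0.0514).

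The pairs of -/- groups in cerebellum were also compared after the data were seen. Between lh-/- and stg-/- 4 of the 7 members were called, beside 3.55% of all probe sets. Between lh-/- and tg-/- none was, beside 1.91%, the smallest limma adjusted p being 0.0981 (Grik3), and between tg-/- and stg-/- none was, beside 2.45%, the smallest being 0.0926 (Grik5). In lh-/- relative to stg-/- Grik3 was higher by 0.88 (SE 0.16, limma adjusted p = 0.00297) and main Grik2 by 0.81 (SE 0.18, limma adjusted p = 0.0157), while Grik1 was -0.93 (SE 0.22, limma adjusted p = 0.0214) and Grik5 -0.66 (SE 0.18, limma adjusted p = 0.0456). Main Grik2 read 268, 242 and 229 in lh-/- and 165, 139 and 117 in stg-/-. Grik5 read 112, 92.4 and 112 in lh-/- and 170, 171 and 161 in stg-/-. Neither overlapped, but the share of all probe sets without overlap was not counted for this pair of groups. Mutation and line background cannot be told apart in this comparison. Of these members Grik1 was also lower and called in lh+/+ relative to stg+/+, as given above. The others were -0.17 for Grik3, 0.25 for main Grik2 and -0.27 for Grik5 there, none of these called.

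Genes whose products act with these receptors were read from lists made with earlier results of these data known. Of 21 kainate receptor partners, 20 were measured in the tissue comparison, and 2 were higher and 11 lower in +/+ cerebellum, 13 called of 20 beside the 58.2% of all probe sets. The auxiliary subunit gene Neto1 differed by -4.78, whereas its relative Neto2, named after its value was seen, was higher by 0.69. The scaffold gene Grip1 differed by -2.30, C1ql3, whose secreted product binds kainate receptors at mossy fibre synapses, by -2.26, and Stx1a by -5.14 on a probe set whose probes can match other transcripts. Of 16 delta receptor partners 12 were measured, 7 higher and 3 lower, 10 called of 12 beside the same 58.2%. Among the cerebellins, Cbln3 was higher by 7.84 and Cbln1 by 4.36, whereas Cbln2 was at -4.61 and Cbln4 at -3.76. Cbln2 and Cbln4 were below the filter in cerebellum and passed that of the tissue comparison only through forebrain. Their lower values in cerebellum are therefore given as a description. A difference of 7.84 leaves Cbln3 dim in +/+ forebrain, so its higher value in cerebellum is also given as a description. The partner counts, like the 58.2%, were not limited to probe sets above the filter in both tissues.

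Of the Adar family, which includes enzymes that edit glutamate receptor transcripts, Adarb1 was higher in +/+ cerebellum by 0.21. Adar (-0.45) and Adarb2 (-0.63) were lower, 3 called of 3. Of 10 other ionotropic receptor genes 8 were measured, 2 higher and 5 lower, 7 called of 8, and the background for both lists is again 58.2%. Grin2c was higher by 2.89 and Gria4 by 1.66, and Grin2b (-3.81) and Grin3a (-0.97) were lower. With the mutations, 0 of the genes on these 4 lists were called in any line and tissue. The mean over the 3 lines called Snap25, a SNARE protein of vesicle fusion, in cerebellum, where it fell by 0.23 (limma adjusted p = 0.0293). That comparison called 1.97% of all probe sets, so this call is not read as a result about the 4 lists.

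The genes most like each member were taken by Pearson r over the 36 arrays after each tissue's mean was subtracted, a description in which all points share their arrays. They were Slc66a1 (r = 0.76), H2aw (0.75) and Mndal (0.74) for Grik1, and Ppargc1a (0.78), Dmxl1 (0.76) and Map4 (0.75) for Grik2. For Grik3 they were Lypla1 (0.93), Fgd4 (0.92) and Dnaja1 (0.92), and these were 0.84, 0.80 and 0.80 without tg+/+ forebrain replicate 2. For Grik4 they were Mafk (0.69), Sostdc1 (0.67) and Car12 (0.65), which were 0.45, 0.38 and 0.44 without stg+/+ cerebellum replicate 2, so that these rested largely on that array. Grik5 was most like Plin2 (0.72), Smarcd3 (0.71) and Elmo2 (0.67), and Grid1 most like 4933412E12Rik (0.68), Cacna2d3 (0.61) and Stk38l (0.58). The 2 probe sets of a gene were less alike than this, with r of 0.25 for Grik1, 0.05 for Grik3 and -0.47 for Grid1.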

How the data were processed

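Total RNA of 36 samples (12 groups of 3) was measured on 1-colour Affymetrix arrays with 45101 probe sets. The authors deposited linear signal intensity values, 1 per probe set and array. The step from scan to signal was, for these arrays, not given in the sources used here. Deposited values share a scaling, since the mean after trimming 2% at each end was 150.001 on every array, and array medians ran from 5.40 to 5.72 on the log2 scale. No detection calls were used, and the number of arrays limits the precision.

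Log2(signal + 2.98) was computed, the constant being the 10th percentile of all values. The 64 control probe sets were left out, and probe sets above the 40th percentile of mean signal were kept, 27022 in each fit. The comparisons used limma 3.58.1 (R 4.3.3) with 1 mean for each group, empirical Bayes with an intensity trend, two-sided tests and Benjamini-Hochberg adjustment over the probe sets kept, called at 0.05. Each tissue was fitted over its 18 arrays and the tissue comparison over all 36. The scripts were tested on simulated data.

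Probe sets with 1 symbol were named (34958, of which 34754 matched GRCm38.p6 by Entrez ID). All member probe sets are given, with at most 4 called genes of each other list by size of change, and the 3 genes most like each member. Members and lists were chosen with earlier results of these data known. Cerebellar replicate numbers come from the titles, whereas forebrain replicates are numbered in record order. Same-numbered stg cerebella deviated together (r = 0.16, 0.19 and 0.38), each above 0.1, so their numbers were read as pairs. In tg (0.29, 0.04 and 0.24) and lh (0.23, 0.09 and 0.33) 1 value of each was below it. In lh, however, all same-numbered values were above those of unlike numbers, the highest of which was 0.0928. Pairs enter only the alternative with a replicate block, not the main tests. In stg, replicate 3 is also the only array of its group among the last 16 records, so pair and record order cannot be told apart there. The alternatives were other filters, a constant of 1, quantile normalization, no intensity trend, blocks and left-out arrays.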

Additional observations from a re-analysis of the deposited data

Results flagged for a closer look

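Of 20 groups of 9 +/+ arrays (10 probe sets in each tissue), 6 held an array far from the rest for the range of its group. Chance marks about 1 in 20 only for independent normal values from 1 population. Here each group joins 3 lines on the linear scale and probe sets share arrays, so the 6 cannot be set against that rate. In forebrain, tg+/+ replicate 2 was low for main Grik3 (56.7, next 184) and main Grik2 (71.4, next 113). In the same group replicate 1 was low for Grik4 (45.3, next 64.1) and replicate 3 for Grik5 (187, next 277). The second Grik3 probe set was high in stg+/+ forebrain replicate 3 (14.3), near the floor of the array. In cerebellum, stg+/+ replicate 1 was high for the second Grik1 probe set (45.3, next 23.7). The 3 +/+ lines differed in cerebellum for main Grik1 (limma adjusted p = 0.0102), with lh+/+ low.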

How the results depend on the processing

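No called member changed direction under any alternative run. Of 92 member changes that were not called, 47 changed sign under some alternative, such as Grik3 in tg forebrain, at 0.24 with a range from -0.53 to 0.64. The stg cerebellum count of 1, Grik3, became 0 with no filter on low signal (limma adjusted p = 0.0585), with no intensity trend (0.0803) and with only the 6 arrays compared (0.106), and ran from 0 to 1 when an array was left out. With the replicate number as a block its limma adjusted p was 0.0177, and the block left the stg, tg and lh cerebellum counts at 1, 0 and 0. The count for effects that differ among lines in cerebellum was 0, and 1 (Grik3, limma adjusted p = 0.0376) with the replicate block. In tg and in lh 1 same-numbered r fell under the limit of 0.1 for pairs, in lh at 0.0948. The tissue count of 7 was 4 with a filter at the 60th percentile, which left fewer members to test, 5 among probe sets above the filter in both tissues (chosen after seeing the data), and 7 to 8 when an array was left out. The count for +/+ lines in cerebellum was 0 to 1 when an array was left out. The other counts kept their value, and the 5 called tissue differences of probe sets above the filter in both tissues kept their sign and their call in every alternative that tested them. For Grik3 in stg cerebellum and for the count among lines, the cause was not tested. Near the floor, as for the second Grik3 probe set, signal over background limits what can be read.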
